A study of Mus musculus with 24 samples.

Results

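The comparison described here set BV2 cells treated with interleukin-10 (IL-10, an anti-inflammatory cytokine) at 50 ng/mL for 72 h against control BV2 cells. BV2 is an immortalised mouse microglial line, so the groups model microglia in culture and not in the brain. The members were chosen by the column names of the deposited table: 3 libraries of IL-10-treated cells and 3 of control cells, or 6 of the 24 libraries in the series, over all 13290 genes listed. The control cells carry no treatment in the labels, and no vehicle is named there. Cells given lipopolysaccharide (LPS, a bacterial cell wall product) at 100 ng/mL or TGF-β at 50 ng/mL for the same 72 h, 3 libraries each, served to show where the IL-10 values differ from other treatments. The labels give no separate cultures, so the p-values measure the spread between libraries, which may be technical.

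IL-10 binds a receptor made of a private chain, Il10ra, and a shared chain, Il10rb. Receptor engagement activates the kinases Jak1 and Tyk2, which phosphorylate the transcription factor Stat3. Stat3 dimers bind palindromic DNA elements of the form TTCNNNGAA and drive genes that restrain macrophage activation, among them Socs3, a feedback inhibitor of cytokine receptors. Microglia, the resident macrophages of the brain, carry this receptor and respond to IL-10 made by neighbouring cells.

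The promoter windows of the genes that moved together were read for that element, because it is the known target of Stat3. Each window ran from 250 bases before to 50 bases after a transcription start in RefSeq (GRCm38.p6). The element was held by 14 genes more than 2-fold higher in IL-10-treated cells, and 7 of these were in the gene lists. The stretches below came from 5 of the 7, without Sirpb1a and Sirpb1c, picked after their values were seen. The capitals mark TTCNNNGAA. Socs3 has 1 such element, 154 bases before its start on the minus strand of chr11:117969486-117969546. Sbno2 encodes a nuclear corepressor, and one of its windows holds the stricter form TTCCNGGAA, 24 bases before the start on the minus strand of chr10:80101177-80101237. Zfp36 encodes tristetraprolin, which destabilises cytokine mRNAs, and its element lies 17 bases before the start on the minus strand of chr7:28379211-28379271. Fcgr1 encodes the high-affinity IgG receptor, with the element 109 bases before the start on the minus strand of chr3:96294044-96294104. Ifit2, an interferon-stimulated gene, holds TTCCNGGAA 241 bases before its start on the plus strand of chr19:34550444-34550487.
Socs3: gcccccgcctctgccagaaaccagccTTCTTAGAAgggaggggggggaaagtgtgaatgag
Sbno2: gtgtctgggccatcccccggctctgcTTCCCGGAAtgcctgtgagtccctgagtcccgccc
Zfp36: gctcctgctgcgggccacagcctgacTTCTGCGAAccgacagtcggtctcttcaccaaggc
Fcgr1: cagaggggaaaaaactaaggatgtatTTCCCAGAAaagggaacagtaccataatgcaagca
Ifit2: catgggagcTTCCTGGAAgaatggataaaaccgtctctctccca

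Both motifs read the same on either strand, and every TTCCNGGAA is also a TTCNNNGAA. TTCNNNGAA was present in 14 of the 137 matched genes that were more than 2-fold higher in IL-10-treated cells (10.2%). The share was 3.70% among the 81 matched genes more than 2-fold lower and 8.07% among the 8995 matched genes tested. Among the 18 matched genes more than 8-fold higher it was 5.56%. Over all 27025 genes of the promoter table it was 9.55%. TTCCNGGAA was present in 2.19% of the genes more than 2-fold higher, in 0 of the genes more than 2-fold lower and in 1.56% of the genes tested. Of 17 leading genes looked up, 13 had a window and 1 of these, Socs3, held TTCNNNGAA. These shares describe windows of 300 bases only.

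The IL-10 libraries held 34779403 to 36317116 gene counts and the control libraries 26910894 to 31903766. Levels are given as CPM, counts scaled to a common library total. At that depth 3 counts in a library correspond to 0.0826 to 0.0863 CPM in IL-10 libraries and 0.094 to 0.1115 CPM in control libraries. Libraries of the same group correlated more closely (r = 0.993 to 0.995 on log2 CPM across genes) than libraries of different groups (r = 0.982 to 0.984), where genes are not independent replicates. The 15 markers of macrophages and microglia were all present, with a summed level of 19130 to 20280 CPM in IL-10 libraries and 18080 to 18980 CPM in control libraries. Of these, 6 rose, 3 fell and 6 did not pass the test, while scaling by library size alone gave 5 higher and 7 lower. Adgre1, which encodes the F4/80 antigen, rose 1.30-fold, while Csf1r, the receptor for the growth factors CSF1 and IL-34, fell by 0.52 on the log2 scale, with 576, 549 and 527 CPM in IL-10-treated cells and 776, 821 and 779 CPM in controls. Markers of neurons (3 of 9 listed) and fibroblasts (2 of 7 listed) summed to at most 0.0321 CPM in any of the 6 libraries. Those of astrocytes summed to 9.73 CPM or less and those of lymphocytes to 2.62 CPM or less. Neutrophil markers summed to 17.24 to 19.07 CPM in IL-10-treated cells and 18.81 to 20.91 CPM in controls. Oligodendrocyte markers summed to 37.16 to 38.07 CPM in IL-10-treated cells and 35.96 to 40.94 CPM in controls. Of 2 tested, 1 fell, or 0 without IL-10 library 3, control library 1 or control library 3. The endothelial list summed to 166.4 to 190.8 CPM in IL-10-treated cells and 265.3 to 293.3 CPM in control cells, and 2 of its 3 tested members fell: Vwf, von Willebrand factor, which had 48.1, 53.1 and 47.6 CPM in IL-10-treated cells and 127, 116 and 136 CPM in controls, and Flt1, a call lost without IL-10 library 3 (edgeR adjusted p = 0.0662) or control library 1 (0.0960). Other defining endothelial genes were at or near 0, and the part of these transcripts in the results below was not tested.

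IL-10 shifted a broad set of genes, most of them modestly, and raised a small set steeply. Of 11790 genes tested with edgeR's quasi-likelihood test, 1447 were higher in IL-10-treated cells (12.3%) and 1286 were lower (10.9%) at a Benjamini-Hochberg adjusted p under 0.05. Both shares are the background for the list counts against controls below. Past 2-fold, 192 were higher (1.63%) and 114 lower (0.967%). The steep end was one-sided, with 29 genes higher and 5 genes lower by more than 8-fold. At the other end, 990 of the higher and 938 of the lower genes differed by less than 1.5-fold. The IL-10 and control libraries did not overlap in 37.9% of the genes tested, 2263 higher (19.2%) and 2207 lower (18.7%). The median log2 fold change over all genes was -0.004. Without control library 1 the count of lower genes was 848.

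**Figure D1:**
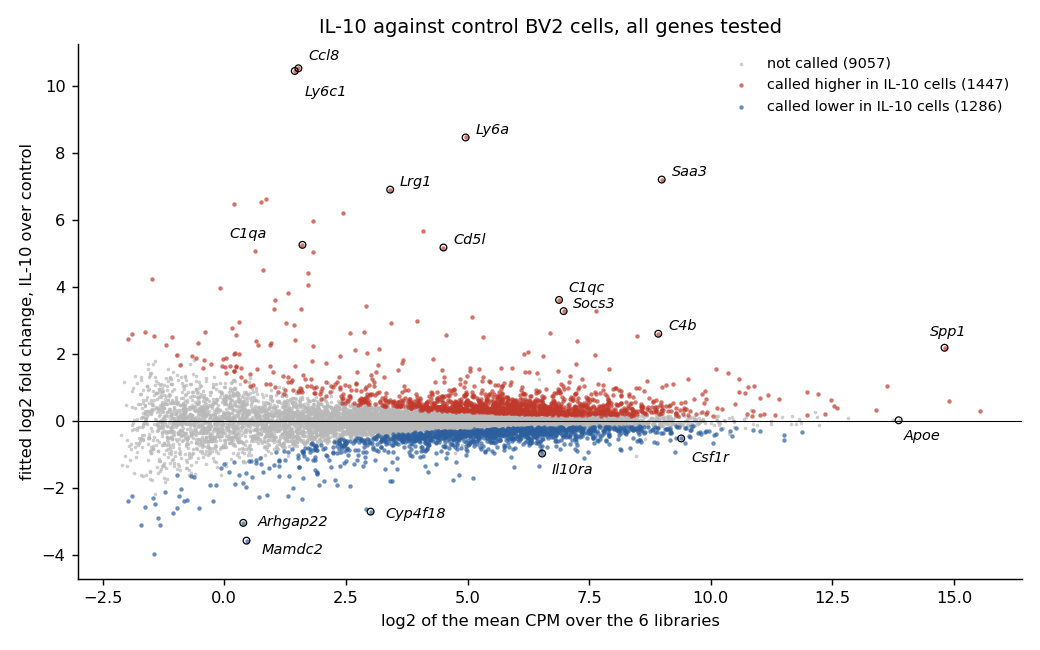
Mean level of each of the 11790 tested genes (x axis, log2 CPM) against the log2 fold change of IL-10-treated over control cells (y axis), with called genes coloured. The points above a log2 fold change of 3 (8-fold) number 29 among called genes, against 5 below -3.

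A few genes took a larger share of the counts in IL-10-treated cells. Spp1, which encodes the secreted adhesion protein osteopontin, took 4.44% ± 0.43 of all counts in IL-10-treated cells and 1.09% ± 0.03 in control cells (SD, n = 3 each). Ctsb, the lysosomal protease cathepsin B, took 1.61% ± 0.02 in IL-10-treated cells and 0.868% ± 0.052 in control cells. Fth1, the heavy chain of the iron store ferritin, took 3.47% ± 0.05 in IL-10-treated cells and 2.58% ± 0.10 in control cells. The 10 genes with the largest gains together took 18.2% of the counts in IL-10-treated cells against 11.8% in controls. Composition scaling (TMM), used for the levels here, assumes that most genes do not change, which was not tested. Scaling by library size alone moved the median log2 fold change of all genes to -0.161 and gave 776 genes higher and 3163 lower, so small changes below are relative to the TMM scale.

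The receptor and its signalling chain receive the cytokine. Here the private receptor chain fell, the transcription factor rose and the feedback inhibitor rose most. Il10ra had 59.2, 65.8 and 62.4 CPM in IL-10-treated cells, against 123, 126 and 119 CPM in control cells. All IL-10 libraries were below all control libraries, and the gene was 1.97-fold lower (log2 fold change -0.97, SE 0.07, edgeR adjusted p = 6.53e-09). Il10rb, the shared chain, had 97.2, 91.3 and 93.8 CPM in IL-10-treated cells and 80.1, 80.1 and 89 CPM in controls. Its groups did not overlap, but it missed the threshold (edgeR adjusted p = 0.0743).

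Among the kinases, Jak1 had 703, 667 and 644 CPM in IL-10-treated cells and 471, 458 and 506 CPM in controls, a 1.40-fold rise (edgeR adjusted p = 3.68e-06). The other receptor kinase, Tyk2, had 83.7, 107 and 96.2 CPM in IL-10-treated cells and 112, 106 and 122 CPM in controls. These ranges overlapped, and its log2 fold change of -0.25 passed the test (edgeR adjusted p = 0.042) but not without IL-10 library 1 (0.1495), IL-10 library 3 (0.05755), control library 1 (0.107) or control library 3 (0.1996). Jak2, which serves other cytokine receptors, had a log2 fold change of 0.37 and did not pass (edgeR adjusted p = 0.0508). It passed in DESeq2 (0.0446) and when IL-10 library 1 (0.02335) or 2 (0.03131) was left out.

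Stat3 had 352, 370 and 354 CPM in IL-10-treated cells, against 208, 197 and 220 CPM in control cells. It was higher in every IL-10 library, by 1.72-fold (SE 0.06 on the log2 scale, edgeR adjusted p = 1.30e-08). Stat2, which transmits type I interferon signals, rose 1.47-fold, and Stat6, which transmits IL-4 signals, fell by 0.26 on the log2 scale. Stat5a and Stat5b did not pass, with log2 fold changes of -0.16 and -0.08, although both passed as lower under library size scaling (adjusted p = 0.0218 and 0.0176 in edgeR).

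Among the feedback inhibitors, Socs3 had 219, 242 and 223 CPM in IL-10-treated cells, against 19.9, 25.4 and 24.9 CPM in controls. The groups lay far apart, with a 9.72-fold difference (log2 fold change 3.28, SE 0.09, edgeR adjusted p = 1.41e-14). Socs2 and Cish, related inhibitors best known from STAT5 signalling, did not pass, with log2 fold changes of -0.32 and 0.55. Ptpn2, a phosphatase that acts on JAK and STAT proteins, had a log2 fold change of 0.35 (edgeR adjusted p = 0.0162), a call lost without IL-10 library 2 (0.05659), control library 1 (0.07045) or under library size scaling (0.1525). Pim3, a survival kinase, fell by 0.33 on the log2 scale. The STAT inhibitors Pias1 and Pias3, the phosphatases Ptpn6 and Ptpn11 and the kinases Pim1 and Pim2 did not pass, although Pim1 did without IL-10 library 3 (edgeR adjusted p = 0.0338) and Pias3 without IL-10 library 2 (0.0462). In all, 5 of the 22 tested members of this list rose and 4 fell, with a median log2 fold change of 0.07, or 4 and 9 with a median of -0.09 under library size scaling. Il10 itself and Socs1 were not tested.

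Genes known to follow IL-10 and Stat3 were mostly higher. Of 28 tested, 17 rose and 1 fell, or 15 and 5 under library size scaling, with a median log2 fold change of 0.60 against -0.004 for all genes. Bcl3, a nuclear member of the IκB family, had 25.6, 29.1 and 28.2 CPM in IL-10-treated cells and 3.18, 3.09 and 4.24 CPM in controls. The IL-10 libraries were all higher, by 7.89-fold (SE 0.15 on the log2 scale, edgeR adjusted p = 3.56e-11). Sbno2 had 345, 374 and 351 CPM in IL-10-treated cells and 117, 122 and 124 CPM in controls, a 2.95-fold rise (edgeR adjusted p = 1.02e-12).

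Il4ra, the receptor chain for IL-4 and IL-13, had 139, 150 and 155 CPM in IL-10-treated cells and 36.7, 34.6 and 45.2 CPM in controls. It rose 3.80-fold, without overlap. Hmox1, which degrades haem, had 1905, 1777 and 2015 CPM in IL-10-treated cells and 688, 736 and 694 CPM in controls, a 2.69-fold rise. Zfp36 rose 2.56-fold, with 47, 45.5 and 45.3 CPM in IL-10-treated cells and 18.6, 16.6 and 18.7 CPM in controls. Etv3, a transcriptional repressor, rose 1.53-fold. Socs3, Sbno2 and Zfp36, whose elements are printed above, were 9.72-fold, 2.95-fold and 2.56-fold higher in IL-10-treated cells. They were picked among genes that rose, so a link between element and rise was not tested.

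Il1rn, which encodes the IL-1 receptor antagonist, did not share this rise. It had 45.4, 39.6 and 35.2 CPM in IL-10-treated cells and 60.5, 41.1 and 56.4 CPM in controls, which overlap. Its log2 fold change of -0.39 did not pass (edgeR adjusted p = 0.0559), though it passed in DESeq2 (0.0168), without IL-10 library 1 (0.0315) and without control library 2 (0.00278).

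The steepest rises were of genes near silence in control cells. Ccl8, a chemokine, had 4.70, 6.22 and 6.32 CPM in IL-10-treated cells and no count in any control library. Against a floor of 3 counts per library it was at least 59.3-fold higher. Ly6c1, a surface antigen of the Ly6 family, had 5.36, 5.31 and 5.71 CPM in IL-10-treated cells and no count in controls, at least 56.4-fold higher. Ly6a, its neighbour on chromosome 15 in the RefSeq annotation and known as Sca-1, had 70.1, 64.4 and 51.7 CPM in IL-10-treated cells and 0.0707, 0.206 and 0.225 CPM in controls. Those control values rest on 16 counts in all. Ly6e, 1 coding gene further along, rose 2.12-fold, and reads of this family can be shared between its members.

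Saa3 and Lrg1, secreted proteins of the acute phase, were among the 15 largest rises. Saa3, serum amyloid A3, had 838, 951 and 1241 CPM in IL-10-treated cells, against 7.50, 6.41 and 6.55 CPM in controls, with all IL-10 libraries far above all control libraries. Lrg1, leucine-rich alpha-2-glycoprotein, had 22.7, 21.5 and 19.1 CPM in IL-10-treated cells and 0.177, 0.235 and 0.0963 CPM in controls. Hp, haptoglobin, had 15.1, 12.2 and 13.8 CPM in IL-10-treated cells and 1.45, 1.29 and 1.06 CPM in controls, a 10.8-fold rise (edgeR adjusted p = 3.77e-10). Slpi, a leukocyte protease inhibitor, rose 1.85-fold. In this list 7 of 11 tested genes rose and 2 fell, with a median log2 fold change of 2.32. The genes named here are among the rises, and 1 of the falls was past 2-fold. Of the 16 members listed, 5 were not tested. In DESeq2 6 of 10 rose and 3 fell, with a median of 1.609, and genes averaging 50 counts or more had a median of 2.811.

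Cd5l, a soluble scavenger receptor made by macrophages and also among the 15 largest rises, had 44.8, 43.8 and 43.9 CPM in IL-10-treated cells and 1.41, 1.09 and 1.16 CPM in controls. It was 36.3-fold higher, with IL-10 libraries within 1 CPM of each other. Ltb4r1, the high-affinity leukotriene B4 receptor, had 8.15, 5.13 and 7.75 CPM in IL-10-treated cells and 0.177, 0.147 and 0 CPM in controls. Kcnn3, a calcium-activated potassium channel, averaged 3.01 ± 1.29 CPM in IL-10-treated cells and 0.0860 ± 0.0372 CPM in controls (SD, n = 3 each). Nxpe5 and Nnmt, the nicotinamide methyltransferase, averaged 3.58 and 2.27 CPM in IL-10-treated cells, and neither had more than 3 counts in the control libraries together. In A4galt, Fgr and Ccl12, also among the largest rises, 1 control library had much weight in the size. Nxpe5, with 0.035, 0 and 0.064 CPM in controls, has a size that rests on few control counts as well. A4galt, which makes the glycolipid Gb3, had a log2 fold change of 6.22 and of 6.99 without control library 3. Fgr, a Src family kinase, had 5.66 and, without control library 3, 6.54. Ccl12, the chemokine gene next to Ccl8 on chromosome 11, had 4.51 and, without control library 1, 7.44.

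**Figure D2:**
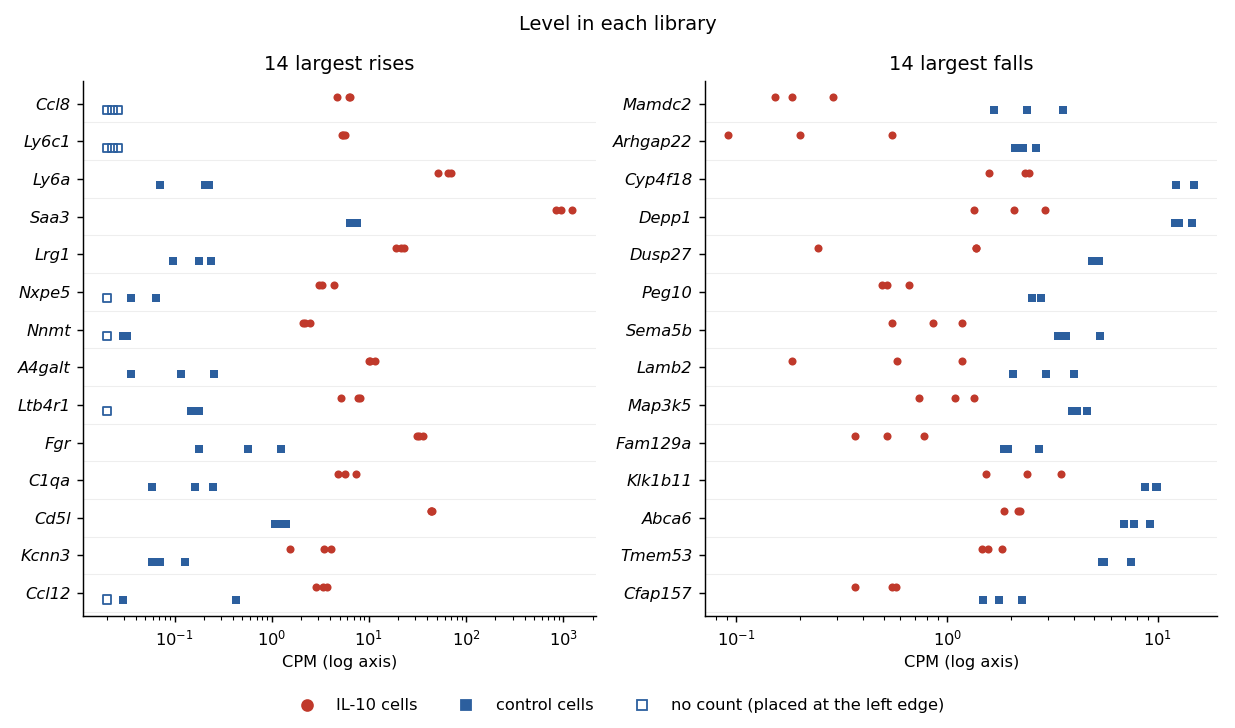
Level in each library (log10 CPM axis) of the 14 largest rises and the 14 largest falls, IL-10 libraries drawn above control libraries within each row. IL-10 and control points are separate for all 28 genes, which the choice of genes required. Saa3 lies at 838 to 1241 CPM in IL-10-treated cells and at 6.41 to 7.50 CPM in controls.

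Of 11 complement genes tested, 8 were higher and 0 lower in IL-10-treated cells, with a median log2 fold change of 1.25, and the other 3 did not pass. C1qa, C1qb and C1qc, the chains of the recognition molecule C1q that tags synapses and debris, are neighbours on chromosome 4 in the RefSeq annotation and rose together. C1qc had 238, 216 and 199 CPM in IL-10-treated cells and 15.3, 19.9 and 17.9 CPM in controls. C1qb had 667, 586 and 582 CPM in IL-10-treated cells and 105, 115 and 94.5 CPM in controls. C1qa had 7.43, 5.61 and 4.76 CPM in IL-10-treated cells and 0.247, 0.0588 and 0.161 CPM in controls. The groups were apart for all 3 genes, and the rise was 38.4-fold for C1qa, 5.85-fold for C1qb and 12.3-fold for C1qc.

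Downstream of C1q, C4b had 807, 912 and 776 CPM in IL-10-treated cells and 142, 131 and 137 CPM in controls. C4b has a near-identical copy in mouse, so its reads may be split between copies. C3, the central component, was a further member that rose, with 298, 279 and 266 CPM in IL-10-treated cells and 133, 126 and 138 CPM in controls, 2.13-fold. Clu, a fluid-phase inhibitor of the terminal pathway, rose 2.38-fold, with 1018, 1042 and 1048 CPM in IL-10-treated cells and 437, 429 and 443 CPM in controls.

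Receptors for complement and antibody were less uniform, with 5 of 15 higher and 2 lower. Over all genes tested 12.3% were higher and 10.9% lower. The median log2 fold change was 0.13, and library size scaling gave 5 higher and 5 lower with a median of -0.03. Fcgr1 had 74.7, 71.7 and 63.8 CPM in IL-10-treated cells and 38.1, 34.1 and 29.3 CPM in controls, a 2.07-fold rise. Fcgr2b, the inhibitory IgG receptor, rose 1.73-fold, with 253, 248 and 259 CPM in IL-10-treated cells and 145, 143 and 150 CPM in controls. Itgam, the alpha chain of complement receptor CR3, rose 1.36-fold. Fcgrt, the neonatal Fc receptor that recycles IgG, fell by 0.42 on the log2 scale, with 45.7, 47.2 and 44.9 CPM in IL-10-treated cells and 63.1, 58.9 and 61.9 CPM in controls.

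Of 20 receptors for debris and dying cells 11 rose and 2 fell, or 7 and 4 under library size scaling, with a median log2 fold change of 0.39. Msr1, the class A scavenger receptor, had 59.7, 61.8 and 61.2 CPM in IL-10-treated cells and 7.85, 6.74 and 6.52 CPM in controls. The IL-10 libraries were all higher, by 8.67-fold (SE 0.11 on the log2 scale, edgeR adjusted p = 2.10e-13). Mrc1, the mannose receptor, had 1213, 1148 and 1085 CPM in IL-10-treated cells and 674, 591 and 691 CPM in controls, 1.76-fold. Mfge8, which bridges phosphatidylserine on dying cells to integrins, had 5800, 6005 and 6232 CPM in IL-10-treated cells and 3454, 3310 and 3577 CPM in controls, 1.74-fold.

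Genes of MHC class I presentation had 13 of 24 higher and 0 lower, or 10 and 2 under library size scaling, with a median log2 fold change of 0.35. H2-K1, a classical heavy chain, had 1837, 2072 and 2072 CPM in IL-10-treated cells and 1080, 1095 and 1082 CPM in controls. B2m, the light chain of all class I molecules, had 3278, 3156 and 3487 CPM in IL-10-treated cells and 2197, 2056 and 2086 CPM in controls. H2-K1 was 1.84-fold and B2m 1.57-fold higher, without overlap. H2-Q7 and H2-T22, non-classical heavy chains whose reads can be shared with other H2 genes, rose 2.39-fold and 2.01-fold. In the list for MHC class II and costimulation 4 of 11 rose and 1 fell, or 3 and 3 under library size scaling, and the median log2 fold change was -0.03. Cd40, the receptor for CD40 ligand, rose 1.79-fold, with 61.9, 68.6 and 70.5 CPM in IL-10-treated cells and 39, 35.6 and 37.6 CPM in controls.

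Interferon-stimulated genes had 25 of 58 higher and 0 lower, or 19 and 1 under library size scaling, with a median log2 fold change of 0.33. Irf7, the factor that amplifies interferon production, had 126, 118 and 105 CPM in IL-10-treated cells and 70.6, 78 and 66.4 CPM in controls, a 1.62-fold rise (edgeR adjusted p = 4.14e-06). Zbp1, a sensor of Z-form nucleic acid, had 13.6, 13.3 and 9.82 CPM in IL-10-treated cells and 3.04, 3.85 and 2.15 CPM in controls, a 4.05-fold rise. The DNA-sensor family on chromosome 1 rose as well: Ifi204 2.96-fold, Ifi203 5.98-fold and Ifi211 12.2-fold, where reads can be shared between copies. Ifi204 had 61, 51.5 and 55.9 CPM in IL-10-treated cells and 19.5, 20.1 and 17.3 CPM in controls.

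NF-κB response genes, the core of the inflammatory programme of macrophages, did not fall as a list. Of 36 tested, 17 rose and 4 fell, with a median log2 fold change of 0.35. Nos2, inducible nitric oxide synthase, had 251, 172 and 265 CPM in IL-10-treated cells and 60.1, 86.9 and 66.6 CPM in controls. The lowest IL-10 library stood above the highest control library, and the difference was 3.22-fold (SE 0.23 on the log2 scale, edgeR adjusted p = 0.00725). Icam1, an adhesion receptor, had 113, 117 and 126 CPM in IL-10-treated cells and 70.8, 73.3 and 70.4 CPM in controls, 1.66-fold. Gadd45b rose 2.49-fold and Birc3, an inhibitor of apoptosis, 1.91-fold.

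The classical inflammatory cytokines tested did not pass. Tnf had 3.33, 4.49 and 4.00 CPM in IL-10-treated cells and 4.35, 4.26 and 6.20 CPM in controls, which overlap (log2 fold change -0.33, edgeR adjusted p = 0.332). Il1b had 11, 6.93 and 6.62 CPM in IL-10-treated cells and 10.2, 9.29 and 9.25 CPM in controls. Its log2 fold change was -0.22 (edgeR adjusted p = 0.431), and it passed when IL-10 library 1 was left out (0.0468). Il6 was not tested.

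Sensors and adaptors of innate immunity were called both ways, 8 of 36 higher and 5 lower, with a median log2 fold change of -0.02. Over all genes tested the shares were 12.3% higher and 10.9% lower. The list had 2 lower without control library 1, and 6 higher and 10 lower under library size scaling. Casp4, the mouse caspase-11 that senses cytosolic LPS, had 27.8, 31.4 and 32.1 CPM in IL-10-treated cells and 8.13, 8.09 and 9.31 CPM in controls, a 3.57-fold rise. Casp1 rose 1.61-fold, and Myd88, the adaptor of most Toll-like receptors, 1.48-fold. Nlrp3, the inflammasome sensor, was lower, with 3.67, 3.84 and 4.21 CPM in IL-10-treated cells and 6.26, 6.85 and 8.57 CPM in controls. The difference was 1.85-fold (edgeR adjusted p = 0.00268).

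Genes of disease-associated microglia, a state described in neurodegeneration models, included 24 of 38 that rose and 2 that fell, or 19 and 9 under library size scaling, with a median log2 fold change of 0.30. Spp1, which took the most counts of them in IL-10-treated cells after Gpnmb, had 41160, 48590 and 50880 CPM in IL-10-treated cells and 10600, 10170 and 10110 CPM in controls. Fabp5, a fatty acid carrier, had 2133, 2102 and 2255 CPM in IL-10-treated cells and 953, 910 and 845 CPM in controls, 2.40-fold. The lysosomal list overlaps this one. There 29 of 52 rose and 4 fell, with a median log2 fold change of 0.17. Library size scaling gave 18 higher and 15 lower, with a median of 0.01.

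The proteases led among lysosomal genes. Ctsb had 16970, 17000 and 17040 CPM in IL-10-treated cells and 8570, 7584 and 8530 CPM in controls, 2.07-fold. Lgmn, the asparagine-specific protease legumain, had 2503, 2609 and 2590 CPM in IL-10-treated cells and 1251, 1208 and 1249 CPM in controls, 2.08-fold. Ctsl rose 2.04-fold and Ctss, active at neutral pH and in antigen processing, 1.70-fold. The 4 genes kept IL-10 and control libraries apart, and each rose also under library size scaling.

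Lipid genes were called in both directions. On the TMM scale the lower calls in both lists below stayed under the 10.9% of all genes tested, and the higher calls were above 12.3%. Fabp4, a fatty acid carrier near Fabp5 on chromosome 3, had 231, 244 and 292 CPM in IL-10-treated cells and 44.7, 52.8 and 48.2 CPM in controls, a 5.26-fold rise (edgeR adjusted p = 8.12e-12). Abca1, the cholesterol exporter driven by liver X receptors, had 561, 557 and 491 CPM in IL-10-treated cells and 371, 317 and 389 CPM in controls, 1.49-fold. Among cholesterol efflux and liver X receptor targets 6 of 19 rose and 2 fell, with a median log2 fold change of 0.02. Library size scaling gave 4 higher and 7 lower, with a median of -0.14. Cholesterol and fatty acid synthesis had 7 of 33 higher and 3 lower, with a median of 0.03, against 2 higher and 6 lower with a median of -0.13 under library size scaling. The count of higher genes was 3 without control library 1 or 3, 4 without IL-10 library 3 and 4 when all 12 cell libraries were fitted together, and without IL-10 library 1 it was 5 higher and 5 lower.

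Genes of haem, iron and oxidant handling had 17 of 38 higher and 8 lower, with a median log2 fold change of 0.15, or 12 and 13 with a median of -0.01 under library size scaling. Mt1, a metal-binding metallothionein, had 1540, 1637 and 1773 CPM in IL-10-treated cells and 582, 585 and 508 CPM in controls, 2.96-fold. Mt2, its neighbour on chromosome 8 in the RefSeq annotation, rose 4.83-fold at a low level of 3.17 CPM in IL-10-treated cells and 0.652 CPM in controls. Prdx1, a peroxidase, had 4847, 4984 and 5626 CPM in IL-10-treated cells and 2927, 2839 and 2803 CPM in controls, 1.80-fold. Fth1 rose 1.50-fold.

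Glycolysis and hypoxia genes leaned downward, 8 of 37 higher and 15 lower, with a median log2 fold change of -0.16. The counts were 4 higher and 23 lower under library size scaling, 4 higher without control library 1 and 10 lower when all 12 cell libraries were fitted together. Egln3, an oxygen sensor that marks HIF proteins for decay, had 65.2, 61.1 and 68.2 CPM in IL-10-treated cells and 108, 125 and 121 CPM in controls, 1.82-fold lower. Hif1a itself rose 1.88-fold, with 106, 113 and 113 CPM in IL-10-treated cells and 51.6, 60.2 and 64.5 CPM in controls. Slc2a1, the glucose transporter GLUT1, was among the members that rose, at 318, 300 and 343 CPM in IL-10-treated cells and 178, 191 and 192 CPM in controls. Pfkfb3, which makes the activator of phosphofructokinase, rose 2.25-fold.

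Nuclear genes of oxidative phosphorylation showed 24 of 75 higher and 0 lower, with a median log2 fold change of 0.14, and 3 higher and 8 lower with a median of -0.02 under library size scaling. The count of higher genes was 13 without IL-10 library 3, 12 without control library 2 and 7 without control library 3. Cox8a, a cytochrome oxidase subunit and one of the members called, had 414, 447 and 444 CPM in IL-10-treated cells and 384, 370 and 356 CPM in controls, and it did not pass under library size scaling (edgeR adjusted p = 0.308). In the stress response list 5 of 33 rose and 13 fell, with a median of -0.11. The counts were 2 higher and 20 lower under library size scaling, 7 lower when all 12 cell libraries were fitted together and 3 higher without IL-10 library 3. Trib3, a target of Atf4, had 54, 78.3 and 69.4 CPM in IL-10-treated cells and 112, 101 and 125 CPM in controls, 1.68-fold lower (edgeR adjusted p = 0.00217, and 0.311 when all 12 cell libraries shared the fit). Phgdh and Shmt2, enzymes of serine and one-carbon metabolism, fell by 0.42 and 0.55 on the log2 scale. Pdia4, a chaperone of the endoplasmic reticulum, went the other way, with 258, 219 and 235 CPM in IL-10-treated cells and 148, 158 and 152 CPM in controls.

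**Figure D3:**
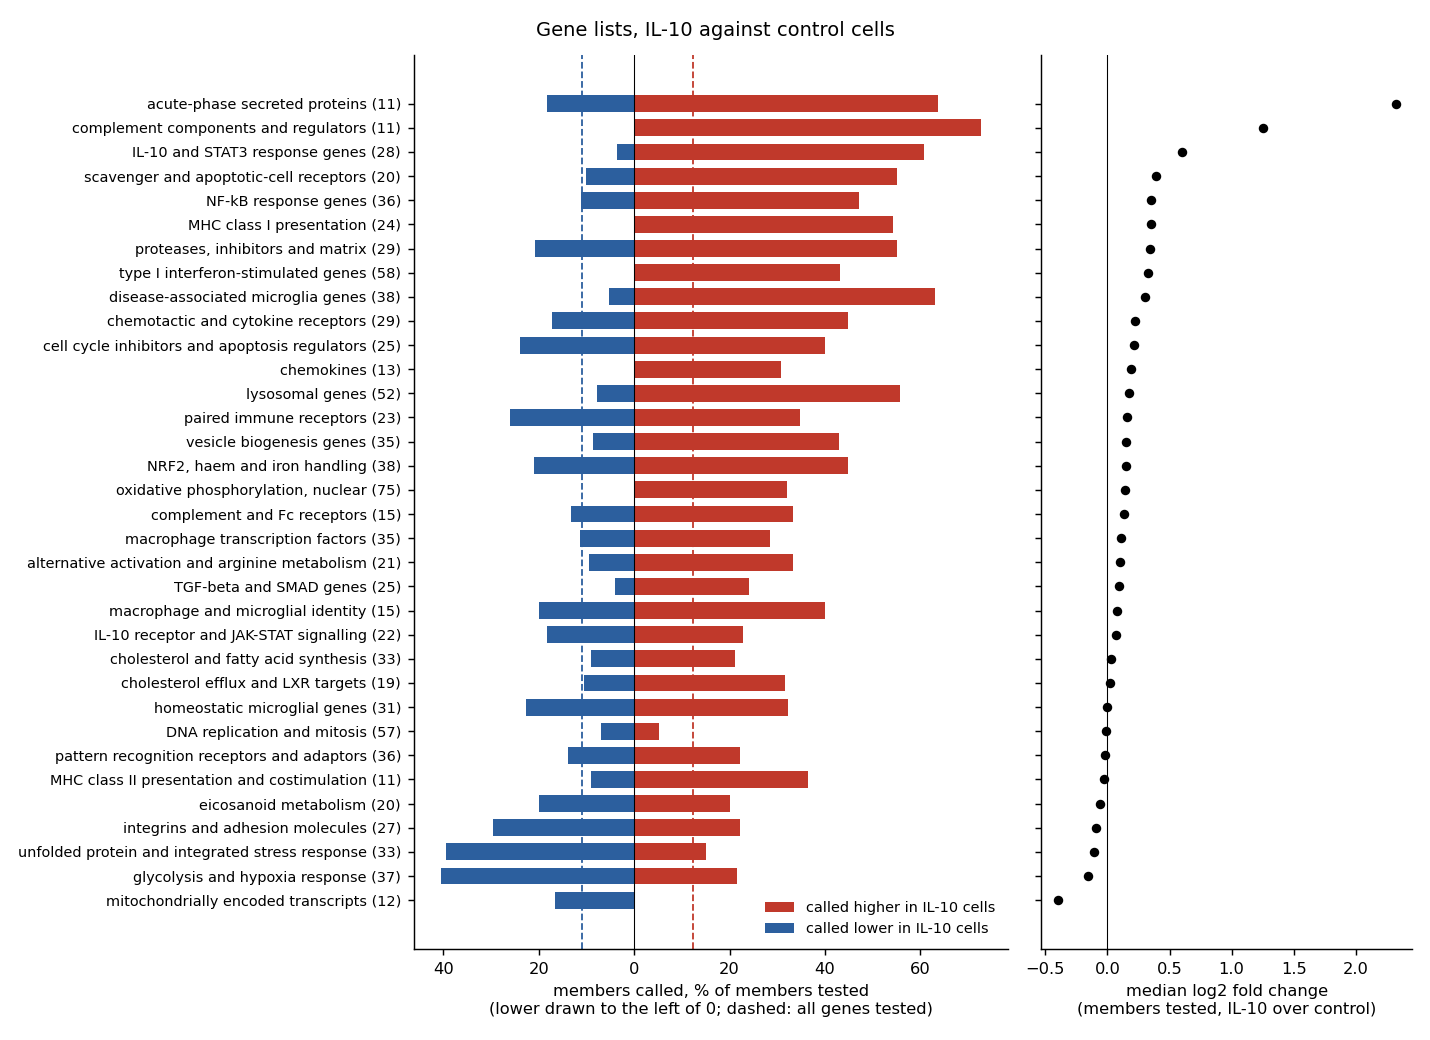
Share of tested members called higher and lower in IL-10-treated against control cells for each gene list, beside the median log2 fold change. Dashed lines mark the shares over all genes tested, 12.3% higher and 10.9% lower. Complement has 8 of 11 higher and the interferon and MHC class I lists have 0 lower on the TMM scale plotted, against 1 and 2 under library size scaling.

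The largest falls were of smaller size than the largest rises. Mamdc2, a secreted matrix protein, had 0.287, 0.183 and 0.153 CPM in IL-10-treated cells and 2.40, 1.68 and 3.53 CPM in controls. Cyp4f18, which inactivates leukotriene B4, had 2.35, 2.44 and 1.59 CPM in IL-10-treated cells and 12.1, 14.8 and 14.9 CPM in controls. It was 6.55-fold lower (log2 fold change -2.71, SE 0.19, edgeR adjusted p = 7.46e-09), while Ltb4r1, the receptor for the same lipid, was among the rises.

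Depp1, a target of FOXO factors, had 2.90, 1.34 and 2.07 CPM in IL-10-treated cells and 12.6, 14.4 and 12.0 CPM in controls. Map3k5, the stress kinase ASK1, had 1.09, 1.34 and 0.732 CPM in IL-10-treated cells and 4.63, 4.15 and 3.92 CPM in controls. Abca6, a lipid transporter, had 2.21, 2.17 and 1.86 CPM in IL-10-treated cells and 9.16, 6.94 and 7.67 CPM in controls. In each of these genes all IL-10 libraries were below all control libraries, by the rule that chose them. Dusp27, Peg10, Sema5b, Fam129a, Klk1b11, Tmem53, Cfap157 and Mcam had log2 fold changes between -2.32 and -1.86. Arhgap22 had -3.05, or -3.95 when IL-10 library 2 was left out, and Lamb2, a laminin chain, had -2.20, or -2.96 when IL-10 library 1 was left out.

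Genes of the proteases, inhibitors and matrix list included 16 of 29 that rose and 6 that fell, with a median log2 fold change of 0.34. Adam8, a membrane protease of leukocytes, had 192, 201 and 200 CPM in IL-10-treated cells and 77.2, 74.3 and 82.2 CPM in controls, 2.54-fold. Mmp12, the macrophage elastase, went the other way, with 34.8, 30.6 and 37.6 CPM in IL-10-treated cells and 95.1, 83.4 and 88.4 CPM in controls, 2.59-fold lower. Of homeostatic microglial genes 10 of 31 rose and 7 fell, with a median of 0.00, against 6 higher and 12 lower with a median of -0.15 under library size scaling. Gpr34, a lipid receptor of microglia, was lower, with 0.602, 0.793 and 1.77 CPM in IL-10-treated cells and 3.15, 3.41 and 3.40 CPM in controls. Its log2 fold change was -1.66 (edgeR adjusted p = 0.00257), or -2.25 without IL-10 library 3. Entpd1, the ATP-degrading enzyme CD39, fell by 0.59 on the log2 scale, with 98.7, 93.7 and 85.8 CPM in IL-10-treated cells and 144, 132 and 142 CPM in controls. Tmem119, a marker of microglia, averaged 10.6 ± 0.68 CPM in IL-10-treated cells and 10.8 ± 1.97 CPM in controls (SD, n = 3 each), with overlap.

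Few genes of DNA replication and mitosis were called, 3 of 57 being higher and 4 lower, which is under the background shares of 12.3% and 10.9%. Those counts varied from 0 to 6 higher and from 2 to 8 lower when single libraries were left out, with 0 higher without control library 1 or without control library 3, 6 higher without control library 2 and 8 lower without IL-10 library 1. Library size scaling gave 0 higher and 11 lower. In the TGF-β and SMAD list 6 of 25 rose and 1 fell, or 6 and 4 under that scaling. Id2, an inhibitor of helix-loop-helix factors, had 311, 357 and 371 CPM in IL-10-treated cells and 178, 173 and 172 CPM in controls, and Bambi, a decoy receptor of the TGF-β family, rose 2.79-fold. Of alternative activation genes 7 of 21 rose and 2 fell, or 5 and 5 under that scaling. F13a1, a coagulation factor chain made by macrophages, rose 1.41-fold (edgeR adjusted p = 0.000292, and 0.0844 when all 12 cell libraries shared the fit), whereas Arg1, arginase, had 297, 180 and 355 CPM in IL-10-treated cells and 220, 330 and 225 CPM in controls, which overlap (edgeR adjusted p = 0.871).

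The remaining lists gave these counts, beside shares of 12.3% higher and 10.9% lower over all genes tested. Some of the counts are near those shares, such as the lower counts of macrophage transcription factors and vesicle biogenesis genes. Chemokines were higher in 4 of 13 cases and lower in 0, or 2 higher without control library 3. Chemotactic and cytokine receptors were higher in 13 of 29 cases and lower in 5, or 12 and 9 under library size scaling, 3 lower when all 12 cell libraries were fitted together, 2 lower without IL-10 library 3, control library 1 or control library 3 and 3 lower without IL-10 library 2. Cell cycle inhibitors and apoptosis regulators had 10 of 25 higher and 6 lower, and macrophage transcription factors 10 of 35 higher and 4 lower, or 6 and 10 with a median of -0.04 under library size scaling. Vesicle biogenesis genes had 15 of 35 higher and 3 lower, with a median log2 fold change of 0.15, or 6 and 9 with a median of -0.01 under that scaling. Paired immune receptors had 8 of 23 higher and 6 lower, or 5 and 8 under that scaling and 5 higher without IL-10 library 2 or control library 2. Integrins and adhesion molecules had 6 of 27 higher and 8 lower, or 5 and 15 under that scaling, and eicosanoid genes 4 of 20 each way, or 3 and 9. Of 12 transcripts encoded by the mitochondrial genome 0 were higher and 2 lower, with a median of -0.40. The lower count was 7 under library size scaling and 4 in DESeq2, and single libraries moved it between 1 (without control library 1 or 2) and 4 (without IL-10 library 3 or control library 3).

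Set directly against LPS-treated cells, IL-10-treated cells had 3190 of 12148 genes higher (26.3%) and 3279 lower (27.0%). This contrast holds no control library, and its levels are scaled over all 12 cell libraries, so they differ slightly from those above. Inflammatory lists were lower in IL-10-treated cells, with 52 of 61 interferon-stimulated genes lower and 4 higher, and 36 of 42 NF-κB response genes lower and 3 higher. DNA replication and mitosis genes were lower in 51 of 57 cases. Lysosomal genes were higher in 40 of 52 cases.

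Lcn2, the iron-carrier-binding protein lipocalin 2, had 0.446, 0.571 and 0.444 CPM in IL-10-treated cells and 1478, 1841 and 1799 CPM in LPS-treated cells. The groups were 3481-fold apart. Kcnf1, Csf3, Susd2, Cd300e and Cxcl2 had no count in IL-10 libraries and were at least 148-fold, 136-fold, 122-fold, 116-fold and 109-fold lower than in LPS-treated cells. Tnf averaged 4.09 ± 0.61 CPM in IL-10-treated cells and 170 ± 25.4 CPM in LPS-treated cells (SD, n = 3 each).

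F13a1 had 1967, 1549 and 1751 CPM in IL-10-treated cells and 1.55, 0.534 and 0.872 CPM in LPS-treated cells. Arg1 had 308, 187 and 369 CPM in IL-10-treated cells and 0.302, 0.134 and 0.203 CPM in LPS-treated cells. F13a1 was 1666-fold and Arg1 1259-fold higher with IL-10, while in the comparison with controls Arg1 did not pass and F13a1 rose 1.41-fold. Cd5l, Lrg1 and Sphk1 were also among the 6 largest, at 210.0-fold, 148-fold and 109-fold higher than in LPS-treated cells.

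Set against TGF-β-treated cells, 2426 genes were higher in IL-10-treated cells (20.0%) and 2223 lower (18.3%). Here the inflammatory lists were higher in IL-10-treated cells, with 47 of 61 interferon-stimulated genes higher and 2 lower and 24 of 42 NF-κB genes higher and 5 lower. Homeostatic microglial genes were lower in 25 of 33 cases and higher in 4. Ly6a, Gas7, Ccl8, Aqp8 and Nxpe5 had no count in TGF-β libraries and were at least 667-fold, 212-fold, 61.8-fold, 46.1-fold and 38.4-fold higher with IL-10, and Saa3 was 345-fold higher. On the other side Cyp4f18 had 2.44, 2.54 and 1.65 CPM in IL-10-treated cells and 223, 244 and 215 CPM in TGF-β-treated cells, 102.5-fold lower. Cx3cr1, the fractalkine receptor, and Ush1g had no count in IL-10 libraries and were at least 85.2-fold and 80.7-fold lower, a limit that for Cx3cr1 is 50.9-fold without TGF-β library 3. Olfml3 had a log2 difference of -11.12, and -14.03 without IL-10 library 1. Cxcl14 had -6.03, and -7.00 without IL-10 library 3. F11r had 1 count in the IL-10 libraries together.

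Across the 4 groups of cells, members of the IL-10 pathway stood in different orders. Socs3 averaged 237 ± 13.1 CPM with IL-10, 52.8 ± 5.64 with LPS, 50.8 ± 6.29 with TGF-β and 24.3 ± 3.24 in controls (SD, n = 3 each), the LPS and TGF-β libraries overlapping. Stat3 averaged 373 ± 10.6 CPM with IL-10, 216 ± 10.4 with LPS, 182 ± 9.06 with TGF-β and 216 ± 12.4 in controls, the LPS and control libraries overlapping. Both were higher with IL-10 than with LPS and than with TGF-β (edgeR adjusted p of 6.72e-12 and 7.66e-12 for Socs3, and 8.26e-09 and 3.35e-10 for Stat3). Il10ra averaged 64.9 ± 3.49 CPM with IL-10, 53.8 ± 6.84 with LPS, 88.7 ± 9.22 with TGF-β and 127 ± 3.13 in controls. It was lower with IL-10 than with TGF-β (edgeR adjusted p = 0.00069). Its difference from LPS passed (0.0199) but not without IL-10 library 2 (0.0751), LPS library 1 (0.0563) or LPS library 3 (0.118).

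C1qc, Saa3, Nos2 and C4b stood in other orders. C1qc averaged 226 ± 20.1 CPM with IL-10, 5.24 ± 0.78 with LPS, 355 ± 31.1 with TGF-β and 18.4 ± 2.45 in controls. The order ran TGF-β, IL-10, controls, LPS, and IL-10-treated cells were 43.3-fold above LPS-treated and 1.57-fold below TGF-β-treated cells. Saa3 averaged 1049 ± 217 CPM with IL-10, 3829 ± 197 with LPS, 3.04 ± 0.11 with TGF-β and 7.08 ± 0.59 in controls. Nos2 averaged 238 ± 51.8 CPM with IL-10, 617 ± 141 with LPS, 10.5 ± 5.61 with TGF-β and 73.9 ± 14.6 in controls. For Saa3 and Nos2 the order was LPS, IL-10, controls, TGF-β. C4b averaged 864 ± 74.0 CPM with IL-10, 9.44 ± 1.52 with LPS, 43.6 ± 8.22 with TGF-β and 142 ± 5.33 in controls, with IL-10 at the top of the order.

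**Figure D4:**
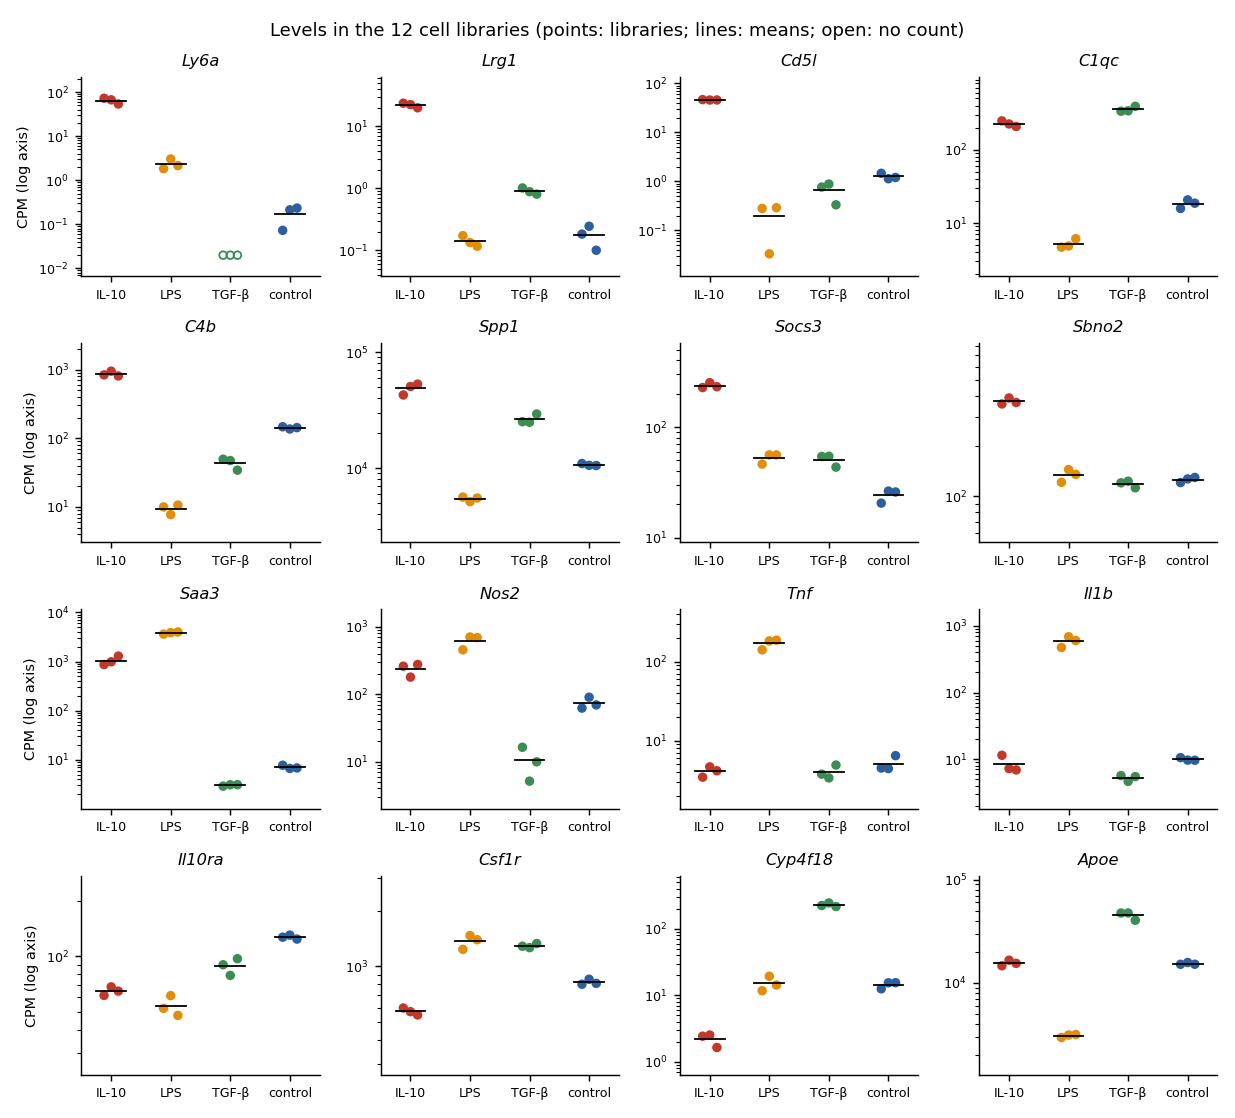
Level of 16 genes in each library (log10 CPM axis), with IL-10, LPS and TGF-β groups left of control cells. Socs3, C4b and Spp1 stand highest with IL-10, Saa3 and Nos2 highest with LPS, and C1qc highest with TGF-β.

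**Figure D5:**
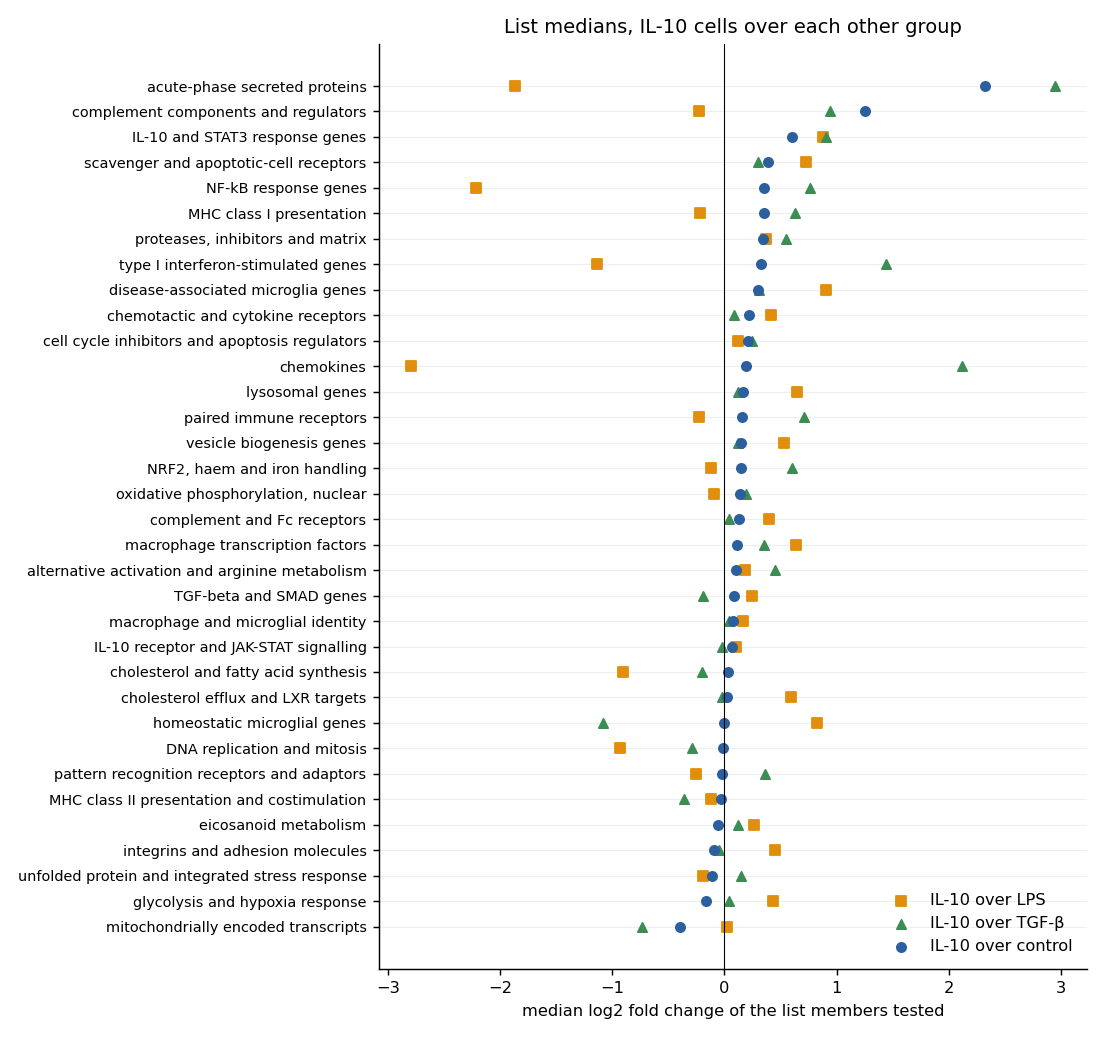
Median log2 fold change of each gene list for IL-10-treated cells over LPS-treated, TGF-β-treated and control cells (x axis, log2). The interferon list stands at -1.14 against LPS, 1.44 against TGF-β and 0.33 against controls.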

How the data were processed

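Total RNA of BV2 cells was amplified with SMART-Seq v4 (18 PCR cycles), tagged with Nextera XT and sequenced in pairs of 150 bases, per the labels' protocols. The deposited tables hold raw counts per gene, whole numbers made by the authors from their reads. DESeq2 is named in the submitters' processing notes, and aligner, annotation and genome build were not given in the sources used here. Without strand information, reads of a gene and of an overlapping antisense gene cannot be told apart. Libraries were grouped by the column names. PCR reads without molecular identifiers are not independent molecules, so the floor of 3 counts covers counting error only.

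From the counts, edgeR 4.0.16 (R 4.3.3) with TMM scaling, its default expression filter and robust quasi-likelihood fits gave fold changes and Benjamini-Hochberg adjusted p-values over all genes tested, with 0.05 as the threshold. Levels are TMM-scaled CPM. The 6 libraries of the comparison entered its fit, and all 12 cell libraries entered the contrasts with LPS and TGF-β. Genes named were the 15 largest rises and falls without overlap whose higher group averaged 50 counts or more, up to 6 members of each list by p or size, every gene of the receptor list, some fixed names and the 6 largest differences each way in the other contrasts. Further list members are marked where they appear. The members and the gene lists were chosen with earlier results of these data known. Simulated counts covered 11790 genes, with 50 genes changed at each fold. The changed genes were drawn only from those above a minimum mean count, and were far fewer than the genes called in the data. The fit of IL-10 against control recovered 78% of 1.5-fold, 84% of 2-fold, 98% of 4-fold and 100% of 8-fold changes. These rates do not cover genes with few counts. Of all calls in this simulation, 4.76% were false.

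The alternatives were DESeq2 1.42.0, limma 3.58.1 (voom), RLE and library size scaling, other filters, all 12 libraries in the fit, a block by column number and leaving out each library. Over all genes, deviations of IL-10 and control libraries with equal column numbers showed little correlation (r of -0.0272 to 0.0332), so the block is an alternative only. Pairing that affects only some genes was not tested. Promoter windows came from RefSeq (GRCm38.p6), matched by symbol. Figures were drawn with matplotlib 3.10.9. Recipient cells given vesicles are not analysed here. A few further genes are not reported here.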

Additional observations from a re-analysis of the deposited data

How the results depend on the processing

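Of 1447 genes higher and 1286 lower in IL-10-treated cells, library size scaling left 776 and gave 3163 lower, with 203 lower past 2-fold. No other scaling, filter or tool moved these counts by more than 1.5 times: DESeq2 gave 1532 higher and 1355 lower, and all 12 cell libraries in one fit gave 1191 higher and 1034 lower. Leaving out single libraries gave 1074 to 1505 higher and 848 to 1329 lower, the lowest without control library 1. Past 2-fold it gave 168 to 193 higher and 88 to 146 lower. The same step gave 2849 to 3018 higher and 2873 to 3099 lower against LPS, and 1999 to 2316 higher and 1843 to 2124 lower against TGF-β. A block by column number, which the labels do not pair (r of deviations 0.0332, -0.0207 and -0.0272 for equal numbers), gave 1327 higher and 1177 lower, with 188 and 119 past 2-fold. Direction was followed for named genes only, and among these 2 that did not pass turned direction. They were Arg1, at -0.055 on the log2 scale under library size scaling and -0.11 to 0.34 without single libraries, and Tmem119, at -0.15 to 0.11 without single libraries. The block gave 8 of 12 mitochondrially encoded transcripts lower against 2, 4 cholesterol synthesis genes higher against 7 and 3 chemotactic and cytokine receptors lower against 5. At 3 libraries a group 78% of simulated 1.5-fold changes were recovered, in genes above a minimum mean count. Smaller changes were not simulated, and small changes depend on the scaling.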

Other observations

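The extracellular vesicles shed by the same kinds of cells were sequenced too, at 4629009 to 8617231 counts for vesicles of IL-10-treated cells and 5645725 to 17978753 for vesicles of control cells. The 12 largest rises in cells were looked up there, with no test. Of these, 2 genes, Nxpe5 and Nnmt, had no count in any vesicle library. No gene of the 12 had all vesicle libraries of IL-10-treated cells above all those of control cells. Ccl8 (12, 0 and 99 counts) and Ly6c1 (0, 146 and 0) had counts only in vesicles of IL-10-treated cells. So did Fgr (97, 0 and 0) and Cd5l (0, 7 and 0). Lrg1, A4galt, Ltb4r1 and C1qa had counts in both kinds of vesicles. Saa3 had 283.5, 275.4 and 2274 CPM in vesicles of IL-10-treated cells and 1415, 320.8 and 1395 CPM in vesicles of control cells, so the groups overlapped. Ly6a had 22.1, 7.56 and 25.99 CPM in vesicles of IL-10-treated cells and 0, 7.44 and 19.4 CPM in vesicles of control cells, which overlap as well.

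Jak3 and Ptpn1 stand outside the fixed lists and were chosen after their values were seen. Jak3, the kinase of receptors that use the common gamma chain, had 103, 111 and 107 CPM in IL-10-treated cells and 35, 39.7 and 40.5 CPM in controls, 2.78-fold (edgeR adjusted p = 1.15e-10). Ptpn1, a phosphatase that acts on JAK kinases, had 253.5, 256.8 and 249.7 CPM in IL-10-treated cells and 139.9, 147.9 and 130.7 CPM in controls, 1.82-fold. The groups were apart for both genes.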
